A study of Mus musculus with 15 samples.

Results

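Jakmip2, Inpp5k and Ermap are 3 of the 25038 genes listed in the count table of mouse RPE/choroid, the retinal pigment epithelium together with the vascular layer beneath it. They were picked as little-studied genes whose level was lower in every library labelled Prom1_KO than in every WT library of that tissue. Since they were chosen by their CPM (a count scaled to the size of its library by TMM) in these 6 libraries, those values are given as a description, without a test. Rpe65 was set beside them in each library, and the same gene names were looked up in the table of cultured mouse RPE (mRPE) cells, which lists 20910 genes. Of the 3 genes Inpp5k has a row there. Jakmip2, Ermap, Rpe65 and Prom1 were not analysed here in the cultured cells.

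Bulk RNA-seq of RPE/choroid covered 3 WT libraries and 3 libraries labelled Prom1_KO, the latter from Prom1fl/fl mice crossed with RPE65-Cre mice and gavaged with tamoxifen, so that deletion depended on cells in which the Rpe65 promoter drives Cre. The methods give an age of 6 to 8 weeks and both sexes for the mice of the project as a whole. The sources used here do not give age or sex for each library, whether the WT mice carried the floxed allele or Cre or received tamoxifen, or whether each library came from a separate animal, so p-values measure the spread between these libraries. The mRPE cells were RPE cells pooled from mice of 8 to 12 weeks and immortalized with a lentivirus carrying HPV E6/E7, in which Prom1 was edited with Cas9 and a guide RNA. Their libraries comprised 4 WT, 3 of the Prom1-KO line 22 and 2 of the Prom1-KO line 26, in the sequencing batches 8995 and 9262. The paper removed both line 26 libraries as outliers of its principal component analysis, whereas they were kept here.

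The RPE is a pigmented monolayer that renews the visual chromophore for photoreceptors, and RPE65 is its retinoid isomerase. JAKMIP2 belongs to a family of coiled-coil proteins named for Janus kinases and microtubules, whose best-studied member also binds GABA-B receptors. INPP5K is an inositol polyphosphate 5-phosphatase that removes a phosphate from phosphoinositides and is known to dampen insulin signalling, and its mutations cause a muscular dystrophy with cataracts. ERMAP is a butyrophilin-like membrane protein of the immunoglobulin superfamily, best known on red blood cells, where it carries the Scianna blood group antigens.

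Since Inpp5k and Ermap were low in the same libraries as Rpe65, the RefSeq promoter windows of these genes are shown (the window of Jakmip2 was not analysed here), each running from 250 bases before to 50 bases after the annotated start. They are written 5′ to 3′ on the gene's own strand, in GRCm38.p6 coordinates, which are not interchangeable with the GRCm39 positions of the genes. Capitals mark any match, on either strand, to CATGTG (an E-box that MITF binds), CACGTG (the palindromic E-box), TAATCC (the OTX core) or AGATAA (the GATA core).
Inpp5k, chr11:75630770-75631069, plus strand: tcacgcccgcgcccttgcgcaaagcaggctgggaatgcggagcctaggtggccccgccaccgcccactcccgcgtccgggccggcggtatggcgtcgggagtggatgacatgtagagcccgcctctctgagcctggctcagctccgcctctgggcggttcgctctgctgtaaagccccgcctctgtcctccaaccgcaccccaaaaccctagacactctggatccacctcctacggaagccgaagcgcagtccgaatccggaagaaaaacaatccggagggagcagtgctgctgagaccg
Ermap, chr4:119189946-119190245, minus strand: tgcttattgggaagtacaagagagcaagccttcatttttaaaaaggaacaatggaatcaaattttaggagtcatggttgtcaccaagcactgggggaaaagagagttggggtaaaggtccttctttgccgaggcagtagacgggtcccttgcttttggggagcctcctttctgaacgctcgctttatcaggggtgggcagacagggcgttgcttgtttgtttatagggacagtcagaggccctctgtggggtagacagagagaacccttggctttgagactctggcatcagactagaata
Rpe65, chr3:159598931-159599230, plus strand: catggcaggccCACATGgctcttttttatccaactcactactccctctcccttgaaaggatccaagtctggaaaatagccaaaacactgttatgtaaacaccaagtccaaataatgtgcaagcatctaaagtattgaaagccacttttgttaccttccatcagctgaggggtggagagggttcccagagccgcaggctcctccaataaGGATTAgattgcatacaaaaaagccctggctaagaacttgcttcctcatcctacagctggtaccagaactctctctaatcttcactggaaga

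The Inpp5k and Ermap windows held no match to these letters. The Rpe65 window held 2, namely CACATG, the reverse complement of CATGTG, at position -239 and GGATTA, the reverse complement of TAATCC, at position -42 from the start. Among 32544 promoter windows of the same length, 14.2% held CATGTG, 7.17% CACGTG, 7.06% TAATCC and 11.2% AGATAA in either orientation. The windows also differed in base composition, with 65.7% GC in Inpp5k, 48.7% in Ermap and 45.3% in Rpe65 against a median of 53% over all windows.

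In the GENCODE M39 annotation of GRCm39, the build used for the counts, Jakmip2 lies on the minus strand at chr18:43663118-43820840 with 22 exons in its canonical transcript. Inpp5k lies on the plus strand at chr11:75520578-75539698 with 12 exons, and Ermap on the minus strand at chr4:119032654-119047208 with 13 exons. Rpe65 lies on the plus strand at chr3:159304802-159330958 with 15 exons. A long non-coding RNA on the opposite strand overlaps the start of Inpp5k (Gm71942), and another overlaps the end of Ermap (Gm70209). Neither has a row in the tissue table, and the strand setting of the counting is not given in the sources used here, so reads of these pairs cannot be told apart.

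The tissue libraries held 48154444 to 61766179 counts each. Ribosomal RNA (mt-Rnr1, mt-Rnr2 and Rn18s-rs5) took 56.8% to 62.7% of the WT counts and 64.7% to 82.2% of those labelled Prom1_KO, and replicate 3 of the latter stood apart at 82.2%. Xist, the RNA that coats the inactive X chromosome, was at 3.21 to 3.60 CPM in the WT libraries and 1.79 CPM in replicate 3 labelled Prom1_KO. It was at 1316 and 1146 CPM in replicates 1 and 2 labelled Prom1_KO, where the Y-linked Uty had 0 counts, so sex markers split the labelled group and are partly confounded with it. The part of ribosomal RNA and of sex in the results was not tested beyond the alternative fits given at the end and the values of replicate 3.

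Prom1, the targeted gene, was read first, in the counts of its whole gene. It was at 48.7, 49.6 and 53.3 CPM in the WT libraries and at 49.9, 48.1 and 35.5 CPM in the libraries labelled Prom1_KO. The groups overlapped, with a log2 fold change of -0.18 (SE 0.158, edgeR quasi-likelihood test, adjusted p = 0.824). RPE/choroid also contains cells that the Cre driver does not target, and their part in the Prom1 level was not tested. The Prom1 level thus did not separate the groups, and every direction below is between libraries by their labels.

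Jakmip2 was present at 16.4, 13.7 and 18.5 CPM in the WT libraries, from 1169, 812 and 1267 counts. In the libraries labelled Prom1_KO it was at 1.86, 1.91 and 1.82 CPM, from 96, 117 and 55 counts. The groups lay far apart, and the labelled libraries were nearly level with each other. The means were 16.2 ± 2.37 and 1.87 ± 0.0428 CPM (SD, n = 3 each), a difference of 8.68-fold and a log2 fold change of -3.12.

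Inpp5k was the most abundant of the 3 genes in CPM. It was at 65.1, 54.3 and 53.4 CPM in WT, from 4645, 3209 and 3667 counts. It was at 11.5, 12.7 and 10.9 CPM in the libraries labelled Prom1_KO, from 593, 777 and 328 counts. The lower group again kept a narrow range, and a clear remainder of the transcript was left in each library. The means of 57.6 ± 6.53 and 11.7 ± 0.915 CPM (SD, n = 3 each) differed 4.93-fold, a log2 fold change of -2.30.

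Ermap was the least abundant in CPM and differed most. It was at 8.56, 6.90 and 11.7 CPM in WT, from 610, 408 and 804 counts. It was at 0.116, 0.229 and 0.299 CPM in the libraries labelled Prom1_KO, where only 6, 14 and 9 counts were found, so that counting error weighs on these values. Its WT mean of 9.06 ± 2.45 CPM stood against 0.215 ± 0.0918 CPM (SD, n = 3 each), 42.2-fold lower, with a log2 fold change of -5.44. In replicate 3 labelled Prom1_KO, whose Xist level was low like that of the WT libraries, Jakmip2, Inpp5k and Ermap were at 1.82, 10.9 and 0.299 CPM, as low as in replicates 1 and 2 for Jakmip2 and Inpp5k and the highest of the 3 for Ermap.

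Rpe65 was at 279.8, 203.8 and 287.2 CPM in WT and at 1.13, 5.97 and 4.48 CPM in the libraries labelled Prom1_KO. Its means of 257 ± 46.2 and 3.86 ± 2.48 CPM (SD, n = 3 each) differed 66.6-fold, with a log2 fold change of -6.06 (SE 0.621, edgeR quasi-likelihood test, adjusted p = 0.0191). This call was lost without WT replicate 1, 2 or 3 or without replicate 2 or 3 labelled Prom1_KO, with adjusted p between 0.0538 and 0.0942, and also with a term for the Xist-high libraries (log2 fold change -5.84, adjusted p = 0.0862). Over all alternatives the log2 fold change stayed between -6.55 and -5.62. In this bulk tissue, fewer RPE cells and less RNA per cell cannot be told apart for Rpe65 or for the 3 genes.

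**Figure D1:**
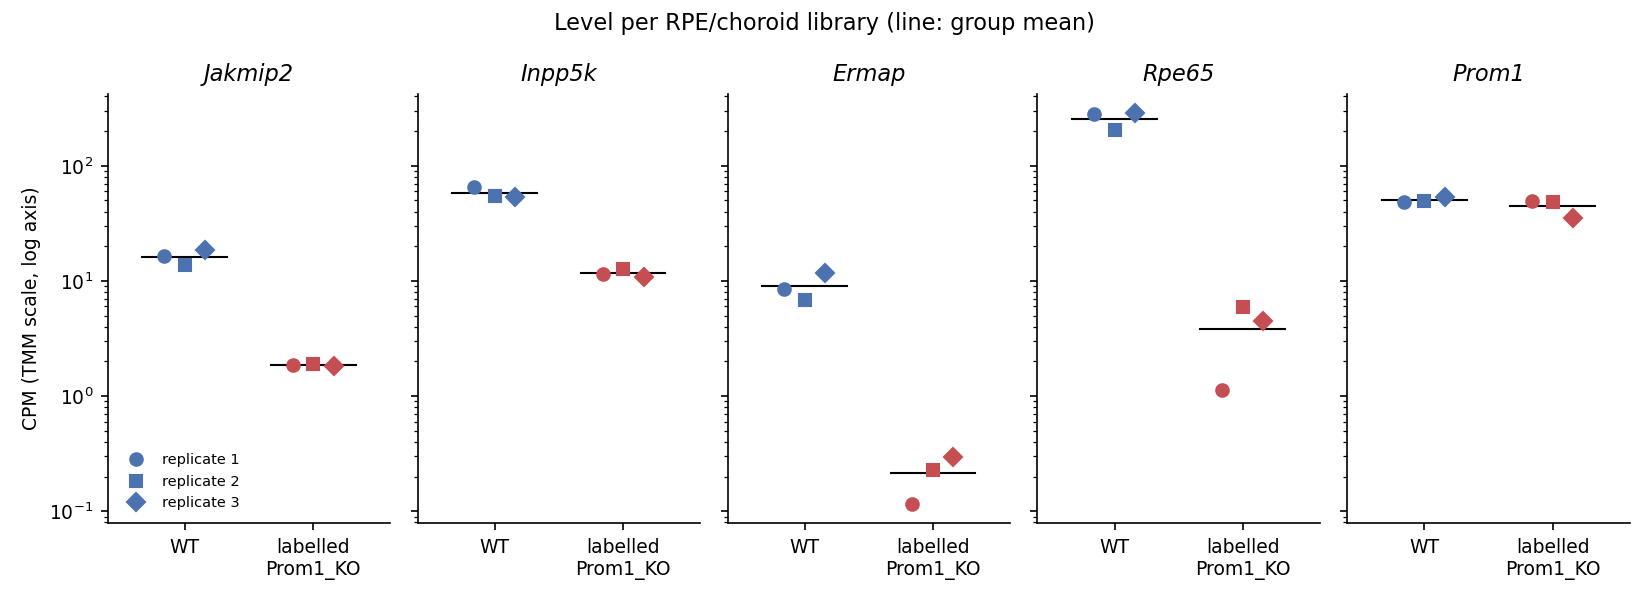
CPM (TMM scale, log axis) of Jakmip2, Inpp5k, Ermap, Rpe65 and Prom1 in each RPE/choroid library, with replicates 1, 2 and 3 as circle, square and diamond and a line at each group mean. Jakmip2 sat at 13.7 to 18.5 CPM in WT and 1.82 to 1.91 CPM in the libraries labelled Prom1_KO, Ermap at 6.90 to 11.7 and 0.116 to 0.299 CPM, while Prom1 overlapped between the groups.

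The selection asked that every labelled library lie below every WT library, and the margins by which the 3 genes met it varied. The lowest WT value was 7.19 times the highest labelled value for Jakmip2, 4.21 times for Inpp5k and 23.1 times for Ermap. In all, 1966 of 24926 tested genes, 7.89%, met the same condition, and 1672, 6.71%, met its mirror image. Just inside the limit lay Ctbp1, with a lowest WT value of 5.40745 and a highest labelled value of 5.407 CPM, and just outside lay Moxd1, with 2.04055 and 2.04059 CPM. By log2 fold change, from the most negative, Ermap was number 8, Jakmip2 number 48 and Inpp5k number 113 of all tested genes. A gene was called at an adjusted p below 0.05 together with a log2 fold change beyond 1.2 in either direction, and on that rule edgeR called 47 genes lower, 0.189%, and 0 higher. At an unadjusted p under 0.05 it counted 1075 lower and 993 higher, and DESeq2 called 188 lower and 83 higher.

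Levels of different genes are compared per kilobase of annotated exon, counted over the union of all transcripts. In WT, Jakmip2 was at 1.01 ± 0.148, Ermap at 1.56 ± 0.422, Inpp5k at 7.68 ± 0.871 and Rpe65 at 132 ± 23.8 CPM per kilobase (SD, n = 3). Jakmip2 and Ermap were neighbours in that order whose mean ± SD ranges met. In the libraries labelled Prom1_KO the order became Ermap at 0.0370, Jakmip2 at 0.117, Inpp5k at 1.56 and Rpe65 at 1.99 CPM per kilobase, and the spread of Rpe65 reached over that of Inpp5k. On this scale Inpp5k, far below Rpe65 in WT tissue, was close to it in the labelled libraries.

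What was left in each library sets the 3 genes apart from each other. Jakmip2 kept 11.3% to 11.8% of its WT mean in the 3 libraries labelled Prom1_KO, a range of 1.05-fold between the highest and the lowest. Inpp5k kept 18.9% to 22.0%, a range of 1.17-fold. Ermap kept 1.29% to 3.30%, a range of 2.56-fold, and Rpe65 0.438% to 2.33%, a range of 5.31-fold. In value, Jakmip2 and Inpp5k differed less between these libraries than Rpe65 did. The labelled values rest on 96, 117 and 55 counts for Jakmip2 and on 6, 14 and 9 for Ermap. Counting error thus limits how finely these ranges can be read. Replicate 1 was lowest for both Rpe65 and Ermap, while replicate 2 was highest for Rpe65 and replicate 3 for Ermap.

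The same counts can be restated as members counted against Rpe65 itself, which is no separate observation. For each 100 Rpe65 counts, WT libraries held 5.86, 6.74 and 6.43 counts of Jakmip2 and labelled libraries 165.5, 31.97 and 40.7. For Inpp5k the WT values were 23.3, 26.6 and 18.6 and the labelled values 1022, 212.3 and 242.96. For Ermap they were 3.06, 3.39 and 4.08 in WT and 10.3, 3.83 and 6.67 in the labelled libraries, so Ermap stayed closest to Rpe65 and Inpp5k moved farthest from it. These ratios rest on 58, 366 and 135 Rpe65 counts in the labelled libraries.

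Other RPE genes spread over the same span and beyond it. Rgr, an opsin of the RPE, kept 0.961% to 4.41% of its WT mean, near Ermap and Rpe65. Lrat, which esterifies retinol, kept 8.20% to 10.9%, Slc16a8, the lactate transporter of the RPE, 10.1% to 17.0%, and Ttr, which carries retinol-binding protein, 6.58% to 19.5%, all around Jakmip2. The retinol dehydrogenase Rdh5 kept 16.1% to 27.0% and the retinaldehyde-binding protein Rlbp1 13.7% to 30.1%, around Inpp5k. Above that span, Mitf, a transcription factor of pigment cells, kept 54.8% to 60.3%, Otx2 42.5% to 81.3% and Best1 51.3% to 129.6%. Tyr, Dct, Mlana, Pmel and Tyrp1, the genes of the melanocyte list, kept 73.8% to 148% of their WT means. The RPE is pigmented as well, so these pigment cell genes are not specific to melanocytes.

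**Figure D2:**
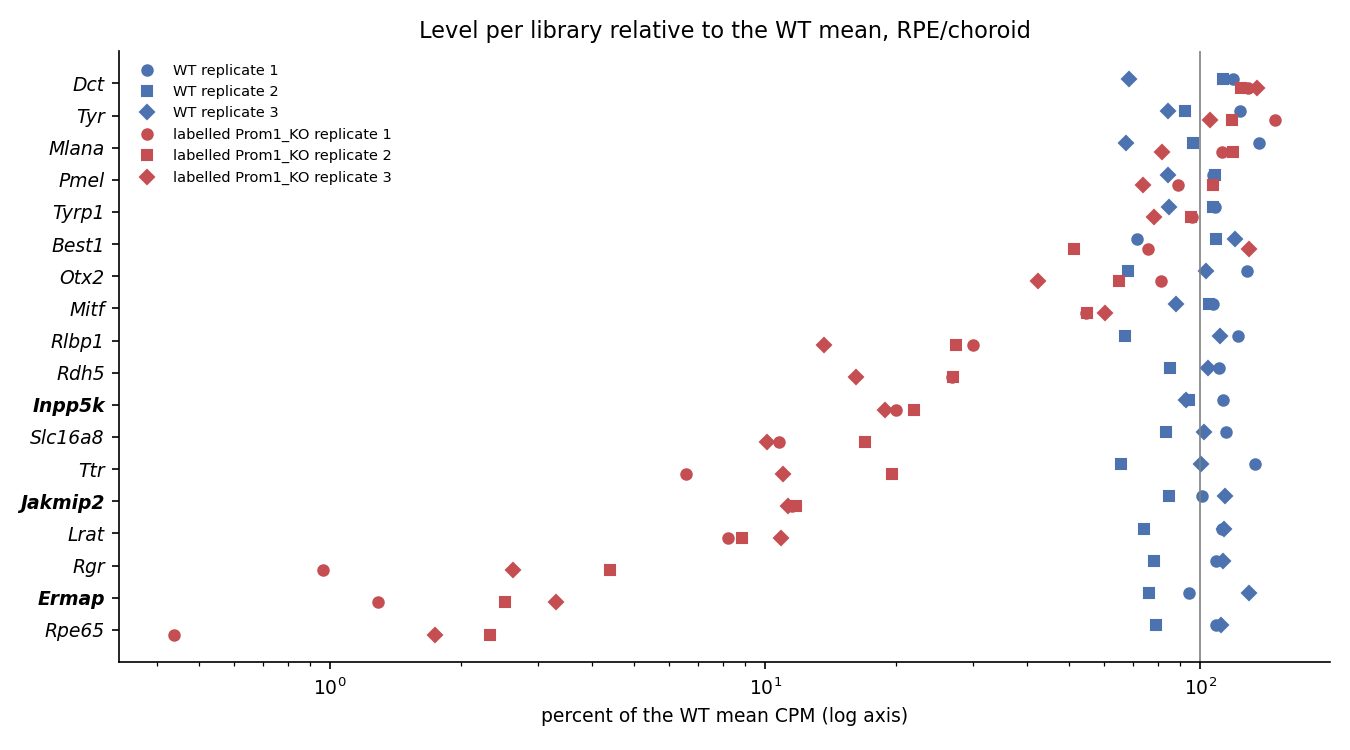
Level of each gene in each RPE/choroid library as a percent of its WT mean CPM (log axis), for Jakmip2, Inpp5k and Ermap (bold), 10 RPE markers and 5 pigment cell genes of the melanocyte list. Ermap lay between Rgr and Rpe65, Jakmip2 between Ttr and Lrat, and Inpp5k between Rdh5 and Slc16a8, while the genes of the melanocyte list lay around 100%.

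Among lists of cell type markers, 5 of 10 RPE genes were called lower (Rpe65, Lrat, Rdh5, Rgr and Slc16a8) and 0 higher, with a median log2 fold change of -2.54 against 0.01 over all tested genes. Of the other RPE genes, Ttr (log2 fold change -3.01, edgeR adjusted p = 0.0709), Rlbp1 (-2.07, 0.0929) and Mitf (-0.82, 0.0815) had no overlap between groups but missed the threshold, and Otx2 (-0.67) and Best1 (-0.25) overlapped. Over all tested genes, 0.189% were called lower and 7.89% were lower without overlap. The summed level of the 10 RPE genes was 1523 to 2436 CPM in WT and 162 to 280 CPM in the labelled libraries, with none at 0 in every library. The number of RPE genes called was 7 with DESeq2, 3 without replicate 3 labelled Prom1_KO, 2 without any one WT library or without replicate 2 labelled Prom1_KO, and 1 with a term for the Xist-high libraries.

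No gene of the other cell type lists was called. The 5 genes of the melanocyte list, which are not specific to melanocytes in this pigmented tissue, summed to 852 to 1267 CPM in WT. They summed to 1138 to 1246 CPM in the labelled libraries, with a median log2 fold change of 0.06. The 16 tested erythroid genes, the list closest to the known site of Ermap, had a median of -0.26 and summed to 69.4 to 98.6 and 43.1 to 145 CPM. Of these, Alas2, the erythroid enzyme of haem synthesis, and Epor, the erythropoietin receptor, had no overlap between groups, at log2 fold changes of -0.70 (adjusted p = 0.278) and -0.44 (adjusted p = 0.809), against 7.89% of all genes. The 8 endothelial genes summed to 125 to 242 CPM in WT and 79.5 to 112 CPM in the labelled libraries, with a median of -0.90, and Plvap of fenestrated endothelium had -1.69 (adjusted p = 0.0993). The 6 Schwann cell and glial genes were on the other side, with a median of 1.14 and sums of 201 to 295 and 303 to 544 CPM. The 12 photoreceptor genes had a median of -0.89 but ranged from 44.9 to 1200 CPM within WT and from 22.4 to 576 CPM within the labelled group. Neuronal, leukocyte, fibroblast and muscle lists had medians of -0.18, 0.27, -0.34 and -0.59. The endothelial genes Kdr, Flt1, Tie1, Emcn and Plvap and the leukocyte genes Cd68 and Csf1r were also lower without overlap. Higher without overlap were the leukocyte genes Ptprc, Cd3e and Ly6c2, the glial Gfap and Dct of the melanocyte list, against 6.71% of all genes. The part of these cell types in the members' difference was not tested.

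By the likeness of their level over the 6 tissue libraries, each member had its own company. Likeness was measured as the root mean square distance between centred log2 CPM profiles over 15339 genes with a mean of at least 1 CPM. Profiles were centred but not scaled, so the distance reflects the size of the difference between groups as well as the shape. Since likeness was computed on the libraries that chose the members, it is a description. Closest to Jakmip2 were Tshr (the thyrotropin receptor, 0.183), Trhde (which degrades thyrotropin-releasing hormone, 0.230), Lrat (0.232), Slc16a8 (0.241) and the retinol dehydrogenase Rdh10 (0.312). Tshr fell from 41.9 to 4.82 CPM in the group means and Trhde from 10.2 to 1.08 CPM, both called lower by edgeR. Genes this close to Jakmip2 share its difference between groups, so these calls are no separate result.

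Among the genes closest to Inpp5k were the transcription factor Tcfl5 (0.115), Gm15222 (0.174), Wfikkn2 (0.198) and Cspg5 (0.206), none of them on the RPE marker list. Closest to Ermap were Rgr (0.454), the paraoxonase Pon1 (0.653), Rpe65 (0.725), Gm9972 (0.860) and Gm50348 (0.941). Rpe65 was number 3 of the genes nearest to Ermap, number 13557 for Jakmip2 and number 15192 for Inpp5k. Its difference between groups was larger than that of Jakmip2 or Inpp5k, so genes without a difference could rank nearer to them. These ranks thus do not show that Rpe65 had a profile of another shape. Between members, Jakmip2 and Inpp5k were 0.425 apart, Jakmip2 and Ermap 1.13, and Inpp5k and Ermap 1.53, so Ermap stood off from both.

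The genes next to each member were looked at in the same fit. Gm54728, 173 bases beyond the end of Jakmip2 on the same strand, was at 1.72 ± 0.492 CPM in WT and 0.234 ± 0.146 CPM in the labelled libraries (SD, n = 3 each), a log2 fold change of -2.78 that missed the threshold (edgeR, adjusted p = 0.122). On the other side of Jakmip2, Gm94 had 0.44 (adjusted p = 0.858). Zfp691, a zinc finger gene 1230 bases beyond the end of Ermap on the same strand, was at 28.5 ± 5.48 in WT and 8.50 ± 2.35 CPM in the labelled libraries, with -1.75 (adjusted p = 0.0510) on the log2 scale, and Svbp on the other side had 0.11 (adjusted p = 0.959). Pitpna, a phosphatidylinositol transfer protein gene whose end lies 162 bases before Inpp5k, had -0.51 (adjusted p = 0.322), and Myo1c, an unconventional myosin gene, had -0.40 (adjusted p = 0.621). Neither neighbour of Inpp5k shared its size of difference, while the gene just beyond the end of Jakmip2 and of Ermap was lower in value without passing the test.

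The relatives and partners of the members were read from fixed lists. Of the 8 genes around Jakmip2 (Jakmip1, Jakmip3, the 4 Janus kinases and the GABA-B receptor genes), 0 were called, and their median log2 fold change was 0.07. Over all tested genes, 0.189% were called lower and 0 higher, so this count is no result about the list. Jakmip1 and Jakmip3 were under 1 CPM in both groups, at 0.231 and 0.373 CPM in WT. Gabbr1, which encodes a GABA-B receptor subunit, and the Janus kinase gene Tyk2 had no overlap between groups at -0.43 (adjusted p = 0.386) and -0.32 (adjusted p = 0.737), where 7.89% of all genes were lower without overlap. Jak2 had 0.24 (adjusted p = 0.695), higher in each labelled library, as were 6.71% of all genes.

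Of 9 other inositol 5-phosphatases, 0 were called, with a median of -0.02 and values from -0.35 to 0.71, the latter in Inpp5j at under 1 CPM. Of 16 other phosphoinositide phosphatases 0 were called (median -0.04), and the lowest value was -0.89 in Inpp4b (adjusted p = 0.178), which acts on the 4-phosphate. Of 21 phosphoinositide kinases 0 were called (median -0.08), and the lowest was Pip4k2c at -0.77 (adjusted p = 0.122), with 24.9 ± 3.19 CPM in WT and 14.6 ± 0.755 CPM in the labelled libraries (SD, n = 3 each). Of 14 genes of insulin signalling, which INPP5K is known to dampen, 0 were called (median -0.12). Among butyrophilin relatives of Ermap, the tested Btnl9 and Mog were both under 1 CPM in each group mean and 0 were called. Over all tested genes 0.189% were called lower and 0 higher. Counts of 0 in lists of these sizes are thus near that share and no result about the lists. Lower without overlap were Inppl1, Inpp4a, Inpp4b, Pip4k2c, Pik3r3, Pik3c2b, Irs2 and Akt1, against 7.89% of all tested genes. Pik3ca and Pak1 were higher without overlap, against 6.71%.

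**Figure D3:**
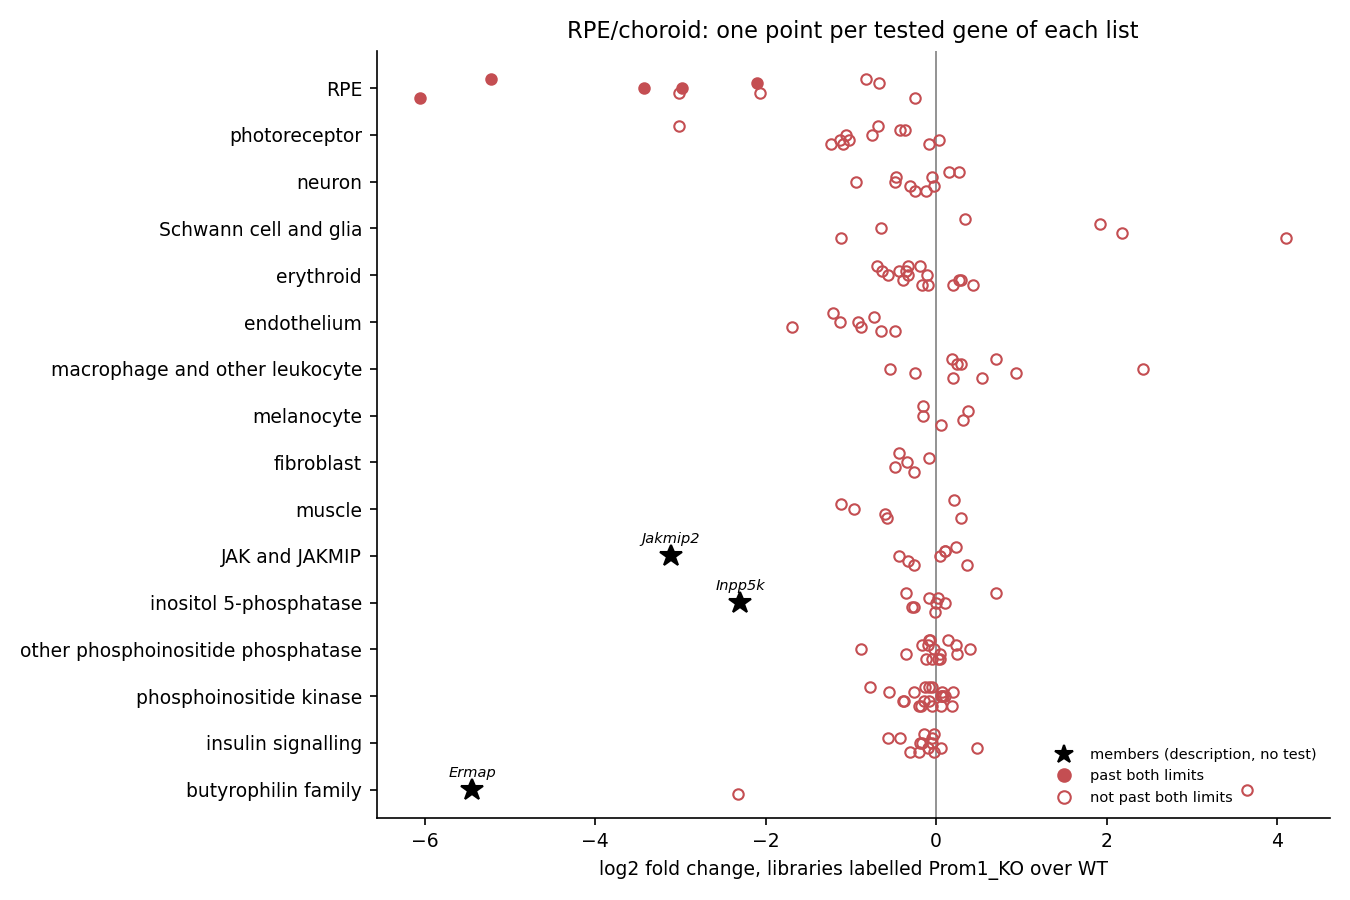
Log2 fold change of libraries labelled Prom1_KO over WT in RPE/choroid, with a point for each tested gene of a list, filled where it passed both limits, and a star for Jakmip2, Inpp5k and Ermap. The stars at -3.12, -2.30 and -5.44 lay outside the range of the other genes of their own lists, on the side of the RPE markers, whose median was -2.54.

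The rule that chose the 3 genes did not use the cultured mRPE libraries, so Inpp5k could be tested in them, although the genes were picked with earlier results of the series known. Of the 10 RPE markers the table lists Rdh5, Best1 and Mitf, which summed to 9.81 to 15.1 CPM in WT, while 4 fibroblast genes summed to 10932 to 13917 CPM. The defining RPE marker Rpe65 was not analysed here in these cells. The mRPE libraries held 8076188 to 27537863 counts, and their table was normalized separately from that of the tissue.

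Inpp5k was at 20.1, 26.1, 26.7 and 30.6 CPM in the WT mRPE libraries, from 272 to 505 counts. In line 22 it was at 9.43, 8.68 and 7.45 CPM, from 109, 180 and 96 counts, below every WT library. The means were 25.9 ± 4.37 (SD, n = 4) and 8.52 ± 0.998 CPM (SD, n = 3). Inpp5k fell in line 22 with a log2 fold change of -1.58 (SE 0.178, edgeR quasi-likelihood test with batch as a term, adjusted p = 7.92e-05), lower in 3 of 3 libraries. All 3 come from the same edited line, so the p-value measures the spread between libraries of that line and of the WT cells. A part of editing and a part of the line cannot be told apart. In this comparison 13.8% of 20455 tested genes were called lower and 25.3% were lower without overlap, so line 22 differed from WT in many genes. Over 13 alternatives the log2 fold change ran from -1.79 to -1.49 and the adjusted p did not exceed 0.00111.

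In line 26 Inpp5k was at 14.8 and 23.5 CPM, the first below every WT library and the second within their range. Its mean of 19.2 ± 6.10 CPM (SD, n = 2) gave a log2 fold change of -0.38 against WT (SE 0.214, edgeR, adjusted p = 0.348), where 0.719% of 20737 genes were called lower. This missed value does not show that line 26 equals WT. Between the lines, line 22 was below line 26 in every library, with a log2 fold change of -1.18 (SE 0.222, edgeR, adjusted p = 0.00238). That passed the limit on the adjusted p, as did 18.1% of genes lower in line 22, but not the limit of 1.2 on the fold change, which 10.7% passed as well. Over all genes, 24.6% were lower in every library of line 22 than in every library of line 26. Without line 22 replicate 1 it was -1.46 and without line 26 replicate 1 it was -1.41, both past that limit.

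Within batch 8995, which holds 1 library of each kind, line 22 was at 47.0% of WT and line 26 at 74.0%. Within batch 9262, line 22 (n = 2) was at 29.0% of WT (n = 3) and line 26 (n = 1) at 84.5%. Line 22 was the lowest in both batches, and line 26 lay between it and WT in both. The Y-linked genes were also lower in line 22, with Uty at 0.692 to 5.06 CPM against 43.3 to 51.6 CPM in WT and 21.1 and 45.8 CPM in line 26, and their part in the Inpp5k result was not tested. The median log2 fold change of the 1455 tested genes on chromosome 11, where Inpp5k lies, was -0.03 in line 22, the same as over all genes.

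**Figure D4:**
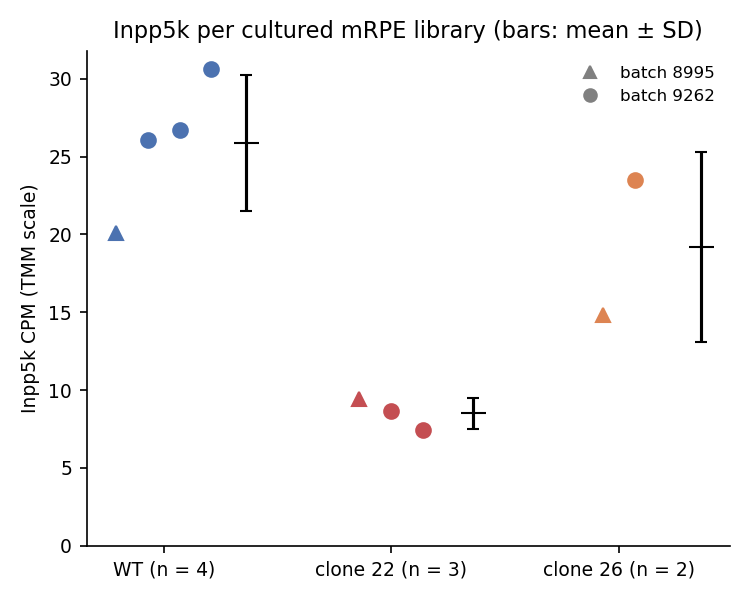
Inpp5k in CPM (TMM scale, axis from 0) in each cultured mRPE library, as triangles for batch 8995 and circles for batch 9262, with the mean ± SD beside each group. The 3 libraries of line 22 lay at 7.45 to 9.43 CPM, below the WT libraries at 20.1 to 30.6 CPM, and the 2 of line 26 at 14.8 and 23.5 CPM.

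The neighbours of Inpp5k did not share its direction in line 22. Pitpna had a log2 fold change of 0.67 (adjusted p = 0.00211) and Myo1c of 0.40 (adjusted p = 0.0136), both higher by the edgeR adjusted p but under the fold limit. Among 7 other inositol 5-phosphatases 0 passed both limits, with values from -0.32 in Ocrl to 0.65 in Inpp5b (adjusted p = 0.0235 and 0.00668). Of 16 other phosphoinositide phosphatases 1 rose and 1 fell, namely Inpp4b, from 0.147 to 20.1 CPM, and Fig4, from 22.3 to 8.99 CPM. Of 19 phosphoinositide kinases 3 rose, the catalytic subunits Pik3cb (1.38) and Pik3cd (1.57) and the lipid kinase Pi4k2b (2.78), and 0 fell. Over all tested genes 11.4% rose and 13.8% fell, so the counts of these lists were near the background and are no result about them.

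Of 13 genes of insulin signalling in line 22, 2 fell and 0 rose, where 13.8% of all tested genes fell, so the count was near the background and is no result about the list. Irs1, a docking protein of the insulin receptor, fell from 138 ± 43.5 to 7.10 ± 3.02 CPM (log2 fold change -4.23, adjusted p = 1.26e-05), and Igf1r from 299.3 to 91.4 CPM (-1.72, adjusted p = 2.85e-06). In line 26, 0 genes of these 4 lists passed both limits, where 1.21% of all tested genes rose and 0.719% fell, so this too is no result about the lists. Around Jakmip2, whose own level was not analysed here in the cells, Gabbr1 fell in line 22 from 99.6 to 37.4 CPM (-1.39, adjusted p = 1.24e-05) and the other 4 tested genes did not pass both limits.

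Read side by side, Inpp5k kept 20.3% of its WT mean in the tissue libraries labelled Prom1_KO. In line 22 its mean was 32.9% of the WT mean, and in line 26 74.1%. The tissue and cell tables share no libraries and were not tested against each other.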

How the data were processed

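Raw gene counts deposited by the authors for 6 RPE/choroid and 9 mRPE libraries were used. Per the methods and the submitters' processing notes, reads were trimmed with Trim Galore 0.6.7, aligned to mm39 with STAR and counted per gene. Which library kit applied is unclear, since the labels name an NEB and the methods an Illumina stranded mRNA kit. Deposited normalized tables were not used.

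Libraries were grouped by their labels. A gene entered a fit if 3 or more libraries held 5 or more of its counts. Differences were tested by quasi-likelihood in edgeR 4.0.16 under R 4.3.3 (TMM, Benjamini-Hochberg adjustment, batch as a term for mRPE, adjusted p under 0.05, absolute log2 fold change over 1.2). Line 22 was compared with WT over 7 libraries, and line 26 in a fit of 9. CPM were scaled by TMM. DESeq2 1.42.0, other filters, size factors and left-out libraries were alternatives. The fits were tested on simulated data.

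The 3 genes and all gene lists were chosen with earlier results of these data known. Named genes were the 3 genes, Prom1, Rpe65, list genes, nearest tested neighbours and the 5 most alike genes of each, of which 1 is not reported here. Promoter windows came from RefSeq.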

Additional observations from a re-analysis of the deposited data

Results flagged for a closer look

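The level of Inpp5k differed between the 2 Prom1-KO mRPE lines by a test of the difference itself on the adjusted p alone. Line 22 was below line 26 by a log2 fold change of -1.18 (edgeR quasi-likelihood test over the 9 mRPE libraries, adjusted p = 0.00238), and each of its 3 libraries (7.45 to 9.43 CPM) lay below both libraries of line 26 (14.8 and 23.5 CPM). The difference stayed under the fold limit of 1.2, and 18.1% of all genes were lower in line 22 on the same limit of adjusted p. The paper reported by Western blot that Prom1 protein was absent in its Prom1-KO lines, and by qPCR that the transcript was reduced. Prom1 was not analysed here in these cells, and a part of editing and a part of the line cannot be told apart. Line 26 has 1 library in each batch, and the paper left out both of them as outliers after batch correction. Both lines were compared with the same WT libraries.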

How the results depend on the processing

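In RPE/choroid the number of genes called was 47, against 271 with DESeq2, 17 with a term for the Xist-high libraries and 53 without mitochondrial genes and Rn18s-rs5 (the last 2, and the recount of RPE markers, were chosen after seeing the data). It was 9 to 40 with a library left out, with the lowest values without replicate 2 labelled Prom1_KO (9), WT replicate 1 (14) and WT replicates 2 or 3 (21 each). The cause was not tested. The log2 fold changes in tissue ran over 12 alternatives from -3.22 to -3.01 for Jakmip2, from -2.40 to -2.20 for Inpp5k and from -5.69 to -4.91 for Ermap. Rpe65 kept its call in 6 of 12, and lost it in 5 fits without a library and with the term for the Xist-high libraries.

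For line 26 against WT, 399 genes were called, against 629 with DESeq2, 194 without the batch term, 818 with the WT and line 26 libraries alone, and 114 to 878 with a library left out. The lower values came without WT replicate 2 (126), 3 (119) or 4 (131) or line 26 replicate 1 (114), and the higher without line 22 replicate 1 (878) or line 26 replicate 2 (626). Inpp5k in line 26 stayed outside the call in 15 of 15 alternatives, with adjusted p from 0.102 to 0.862. The 5154 genes called in line 22 and the 3797 between the lines stayed within 1.5 times these counts, from 4402 to 5725 and from 3194 to 4229. The log2 fold change of Inpp5k between the lines ran from -1.46 to -0.91. Alternatives for Jakmip2, Ermap and Rpe65 in mRPE were not run, since these genes were not analysed there. No paired analysis was possible because the labels give no replicate number shared between groups, and the numbers used here follow the order of the samples. The mRPE batches were a term in the fits. The low counts of Ermap and Rpe65 in the labelled tissue libraries limit their precision.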
